A study of Mus musculus with 3 samples.

Results

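The simple-epithelial keratin genes Krt8, Krt7, Krt80, Krt18, Krt19, Krt20 and Krt23, were followed in mouse colon organoids with and without interferon gamma (IFN-γ). They were taken by gene symbol, 7 of the 53 keratin genes and 32285 features in the count matrices. The sc-RNAseq data came from 3 libraries of organoids in full medium, a medium that keeps most cells in a stem or progenitor state. The groups were untreated organoids, organoids treated with IFN-γ for 24 h and organoids treated for 48 h, with 1 library each. The labels give no strain or genotype. The paper describes colon organoids from untreated wild-type mice, grown in full or differentiation medium. Its methods list several mouse strains as sources of organoids and assembloids, without tying any to these libraries. Live cells were sorted before capture.

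Keratins build the intermediate filaments of epithelial cells. A filament forms only from a type I chain paired with a type II chain, so the balance of both classes is given here beside their levels. The counts are of RNA, and keratin protein was not measured in these libraries. In the intestine KRT8 is the principal type II chain and pairs with KRT18 or KRT19, while KRT20 is a type I chain known as a marker of differentiated surface colonocytes. KRT7 is a type II chain better known from ducts and bladder than from colonocytes, and KRT23 (type I) and KRT80 (type II) are less studied members of the same families.

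The genes lie in both mouse keratin clusters, named here with positions on mm10 from GENCODE vM21. The type I genes Krt20 (chr11:99428403-99438150), Krt23 (chr11:99477974-99493137) and Krt19 (chr11:100140810-100148665) sit on the minus strand of chromosome 11. The type II genes Krt80 (chr15:101347444-101370162) and Krt8 (chr15:101996698-102004482) sit on the minus strand of chromosome 15, and Krt7 (chr15:101411043-101430313) on its plus strand. Krt18 (chr15:102028180-102032027, plus strand) is the exception, a type I gene within the type II cluster, 23697 bases from Krt8. Krt8, Krt7 and Krt80 each overlap an annotated non-coding gene on the opposite strand, and the annotation also holds a Krt8 pseudogene; how reads shared with these were counted is not given in the sources used here.

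Bases upstream of the transcription start are shown for both neighbouring pairs, because both Krt8 and Krt18 were lower in the treated libraries while the pooled ratios of Krt20 and Krt23 differed in direction. Each line gives, 5′ to 3′ on the strand of the gene, the 100 bases nearest the RefSeq start that lie outside every annotated exon (GRCm38.p6, RefSeq), and capitals mark a TATAAA box. The last base shown lies 141 (Krt8), 37 (Krt18), 1 (Krt20) and 18 (Krt23) bases before that start. The lines therefore do not show the same stretch of each promoter.
Krt8 (chr15:102004483-102004582): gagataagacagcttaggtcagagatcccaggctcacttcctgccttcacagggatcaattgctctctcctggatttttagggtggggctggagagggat
Krt18 (chr15:102028080-102028179): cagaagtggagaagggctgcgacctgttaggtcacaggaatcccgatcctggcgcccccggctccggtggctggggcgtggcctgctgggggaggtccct
Krt20 (chr11:99438154-99438253): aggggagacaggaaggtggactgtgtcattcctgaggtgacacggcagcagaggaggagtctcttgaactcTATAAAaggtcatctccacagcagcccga
Krt23 (chr11:99493138-99493237): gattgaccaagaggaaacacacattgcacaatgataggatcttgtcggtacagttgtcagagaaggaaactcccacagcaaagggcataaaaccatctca
Promoter sequence was at hand for 5 of the 7 genes, Krt7 being the fifth and Krt19 and Krt80 unmatched. The 250 bases before the start were searched on both strands for TATAAA, the interferon regulatory factor core GAAANNGAA and the AP-1 site TGANTCA. The single match was the TATAAA of Krt20, which begins 29 bases before the start. Of 32851 mouse promoter windows of this length, 12.4% held TATAAA, 7.13% the IRF letters and 6.75% the AP-1 letters.

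After removal of background barcodes the libraries held 1058, 917 and 2934 cells with 49801935, 71077817 and 47243500 UMIs (untreated, 24 h and 48 h, the order used throughout). The median depth was 33550, 68784 and 10772 UMIs per cell, and 6 cell barcodes occurred in more than 1 library. The IFN-γ response gene Irf1 stood at 23.5, 331 and 310 CPM, UMIs of the kept cells scaled to the same total in each library, and Cd74 at 0.382, 1219.9 and 2318 CPM, each far higher in both treated libraries. Stromal, immune and endothelial marker lists summed to at most 3.89 CPM in any library, with Col1a1, Col3a1 and Ptprc at 0. Each condition has 1 library, so there is no test across samples, and all intervals are 95% intervals that cover counting error only. Levels are in CPM, with 1 UMI per captured 3′ end and no scaling by gene length.

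Summed over the 7 genes, keratin UMIs made up 5464 CPM without IFN-γ, 3390 CPM after 24 h and 3070 CPM after 48 h. The log2 ratio of the sum to untreated was −0.69 (−0.70 to −0.68) at 24 h and −0.83 (−0.84 to −0.82) at 48 h. These genes held 98.9%, 99.4% and 99.5% of the UMIs of all 53 keratin genes, so they are nearly the whole keratin message of the organoids. The ratios depend on scaling: the median over all genes tested was −0.26 at 24 h and −0.08 at 48 h with totals, and TMM factors raised every ratio by 0.45 and 0.19.

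Among type II genes, Krt8 was the most abundant keratin in every library, with 2216, 1459 and 1364 CPM. Both treated libraries were lower, by log2 ratios of −0.60 (−0.62 to −0.59) and −0.70 (−0.71 to −0.69). Krt7 stood at 431, 326 and 314 CPM. Its log2 ratio was −0.40 at 24 h and −0.46 at 48 h, but under TMM factors the 24 h value turned to 0.04, so its direction at that time rests on the scaling. Krt80 was rare, with 66, 35 and 38 UMIs, or 1.33, 0.492 and 0.804 CPM, and its ratios of −1.43 (−2.06 to −0.82) and −0.72 (−1.34 to −0.12) are correspondingly wide.

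The type I genes differed among themselves. Krt19 stood at 1982, 989 and 819 CPM, the largest difference of the abundant members, with log2 ratios of −1.004 (−1.02 to −0.99) and −1.28 (−1.29 to −1.26). Krt18 stood at 805, 587 and 545 CPM, with smaller ratios of −0.46 and −0.56; under TMM factors its 24 h value was −0.01. Pooled over cells, Krt8, Krt18 and Krt19 were each lower at 48 h than at 24 h, Krt19 by the most, with a log2 ratio of 48 h to 24 h of −0.27 (−0.29 to −0.25) against −0.10 for Krt8 and −0.11 for Krt18. For Krt8 that order turned with cell states at their untreated share (1492 CPM at 24 h, 1523 CPM at 48 h). It also turned with a minimum of 10000 UMIs per cell (log2 ratios to untreated of −0.607 and −0.601). Both turns are with total UMIs, and TMM factors raise the 24 h ratios more (0.45) than the 48 h ones (0.19). With total UMIs and among clusters 0 to 5, described below, Krt8 was lower at 48 h in clusters 1, 2 and 4. It was higher in cluster 0 (809 and 819 CPM), cluster 3 and colonocyte-like cells (cluster 5). Under TMM factors its log2 ratios to untreated were lower at 48 h in clusters 0, 3 and 5 as well. They were −0.26 and −0.50 in cluster 0, −0.10 and −0.22 in colonocyte-like cells, and −0.004 and −0.17 in cluster 3. Among clusters 0 to 5, Krt18 was higher at 48 h in clusters 0 (333 and 381 CPM), 1 (532 and 546 CPM) and 3 (870 and 918 CPM), and lower in clusters 2, 4 and 5. Under TMM factors the Krt18 log2 ratios to untreated were lower at 48 h in clusters 0, 1 and 3 as well. They were −0.17 and −0.24 in cluster 0, −0.14 and −0.36 in cluster 1, and 0.12 and −0.06 in cluster 3.

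Krt20 ran against the others at far lower level, with 21.6, 27.6 and 26.1 CPM from 1078, 1959 and 1231 UMIs. Pooled, the log2 ratio was 0.35 (0.24 to 0.46) at 24 h and 0.27 (0.15 to 0.39) at 48 h, but at 48 h it turned to −0.13 when each cell counted equally and to −0.25 when each cell was thinned to 5000 UMIs. Krt23 stood at 6.08, 1.73 and 1.12 CPM, from 303, 123 and 53 UMIs. Its log2 ratio was −1.81 (−2.13 to −1.51) at 24 h and −2.44 (−2.89 to −2.01) at 48 h. Of the 123 UMIs at 24 h, 64 came from 1 cell, without which the level was 0.831 CPM, and leaving out the highest cell of each library gave a log2 ratio of −2.79.

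**Figure D1:**
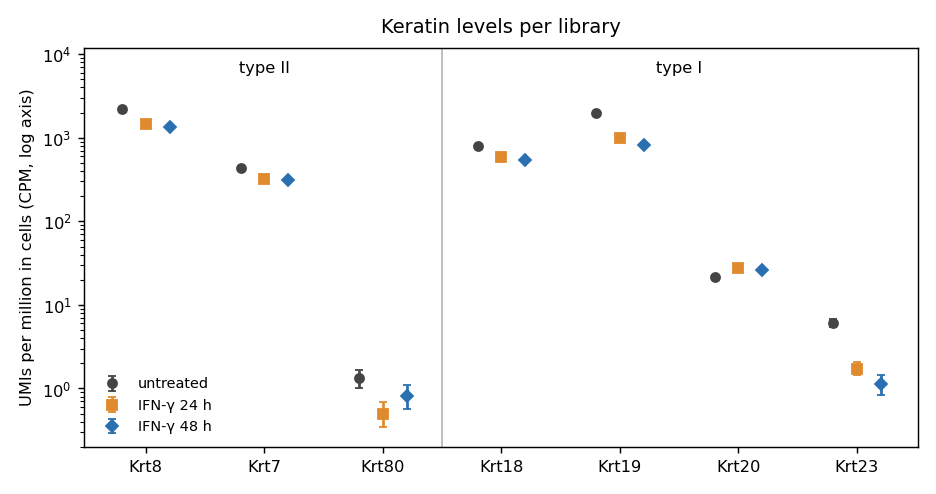
Keratin levels in the 3 libraries, as CPM on a log axis, with type II genes left of the line and type I genes right of it; bars are 95% counting intervals and there is 1 library per condition. Krt8 stands at 2216, 1459 and 1364 CPM and Krt19 at 1982, 989 and 819 CPM, while Krt20 lies between 21.6 and 27.6 CPM.

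Of the 7 genes, 5 averaged at least 5 CPM over the libraries compared, the low-value limit used for counting, and Krt23 and Krt80 did not. Of those 5, Krt19 alone was at least 2-fold lower at 24 h, where 10.5% of the 10086 genes tested were, and alone again at 48 h, where 6.23% of 10228 were. None of the 5 was at least 2-fold higher, against 2.11% and 3.02% of all genes. At 24 h Krt19 lay on the limit itself, 2.005-fold lower, and it dropped out of the count under TMM factors (log2 ratio −0.56).

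**Figure D2:**
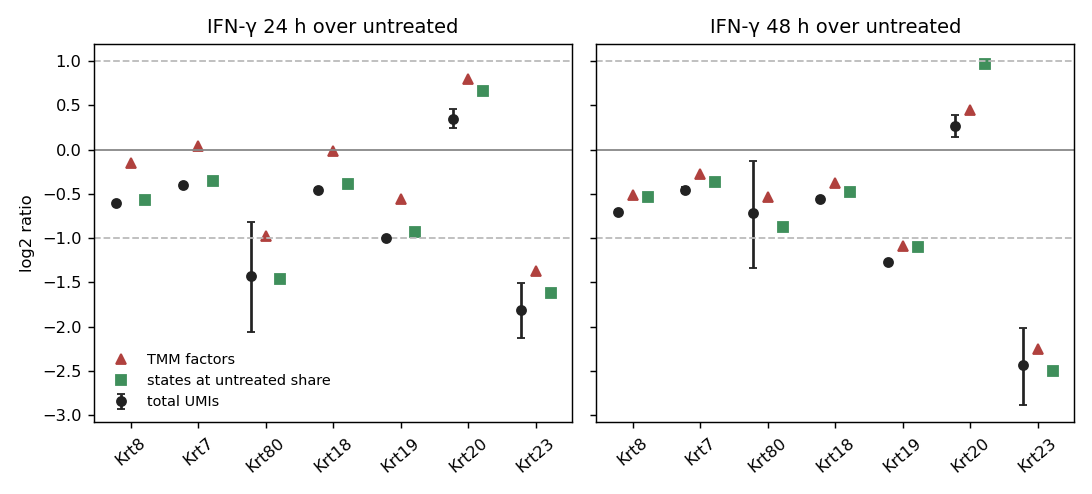
Log2 ratio of each gene to the untreated library at 24 h and 48 h, with total UMIs (circles, bars are 95% counting intervals), with TMM factors (triangles) and with cell states held at their untreated share of UMIs (squares). Dashed lines mark 2-fold. Krt19 is near or past −1 with total UMIs, Krt7 and Krt18 reach 0.04 and −0.01 at 24 h with TMM factors, and Krt20 is above 0 in the 3 versions drawn, although at 48 h it was −0.13 with each cell counted equally and −0.25 with thinned cells.

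The balance of partners differed as well. The ratio of type I to type II UMIs was 1.06 without IFN-γ, 0.899 after 24 h and 0.829 after 48 h, log2 differences of −0.24 and −0.36 that no scaling between libraries can alter, because both classes are counted in the same cells. Most of it lay in Krt19: per Krt8 UMI there were 0.895, 0.678 and 0.600 Krt19 UMIs. Krt18 went the other way relative to Krt8, with 0.363, 0.402 and 0.400 UMIs. Krt18 and Krt19 together went from 1.26 UMIs per Krt8 UMI to 1.08 and then to 1.0002.

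Cells were then grouped into 9 clusters computed without any keratin gene, and clusters were named only where fixed marker genes carried the name. Clusters 1 and 2 were proliferating-like, cluster 4 goblet-like, cluster 5 colonocyte-like and cluster 7 enteroendocrine-like. Cluster 0, with raised stem genes such as Lgr5 and Smoc2 but shallow cells, and cluster 3, led by Stox2, Edn1 and Msln, stayed unnamed, as did the small clusters 6 and 8. Colonocyte-like cells made up 12.4%, 7.74% and 6.203% of cells, so a pooled level mixes the makeup of a library with the level in its cells.

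Krt8 and Krt19 were highest in colonocyte-like cells and cluster 3. In colonocyte-like cells Krt8 stood at 3968, 2716 and 3001 CPM and Krt19 at 3726, 1925 and 1942 CPM. In cluster 3 they stood at 2850, 2085 and 2220 CPM and at 3264, 2158 and 1820 CPM. Among the larger clusters cluster 0 was low, with 1319, 809 and 819 CPM of Krt8. Over the cells of a library Krt8 and Krt19 also varied together, with a Pearson correlation of log2(thinned count + 1) of 0.63, 0.56 and 0.48. For Krt8 and Krt18 it was 0.24, 0.21 and 0.24. Cells of 1 library share its depth and preparation, so these are descriptions.

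Krt18 and Krt7 had another order of states. Krt18 was highest in goblet-like cells in the untreated library (1163, 861 and 722 CPM) and in cluster 3 at 48 h (1088, 870 and 918 CPM). At 24 h these states overlapped within counting error, and without the highest cell of each the goblet-like level was 839 CPM and that of cluster 3 was 814 CPM. Colonocyte-like cells (657, 738 and 544 CPM) were below the other cells in the untreated library (log2 ratio −0.34), above them at 24 h (0.38, 0.34 to 0.42) and at the same level within counting error at 48 h. Per Krt8 UMI, goblet-like cells held 0.702, 0.651 and 0.603 Krt18 UMIs, and colonocyte-like cells 0.166, 0.272 and 0.181. Krt7 was highest in cluster 3 (853, 666 and 637 CPM) except at 24 h, where the 12 enteroendocrine-like cells stood at 720 CPM with a wide interval. Krt4, a keratin of stratified epithelium that is no member, was also highest in cluster 3, at 153, 18.7 and 7.52 CPM.

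The lower Krt19 level was found in every state with at least 20 cells in both libraries, 6 of 6 at 24 h and 7 of 7 at 48 h, and the counts were the same under TMM factors. The states share the same libraries, so they are not repeats of each other. Background barcodes, those under 2000 UMIs, also held less Krt19 (2056, 1036 and 815 CPM), and their part in these counts was not tested. The log2 ratios of Krt19 ran from −1.17 in cluster 0 to −0.60 in cluster 3 at 24 h, and from −1.44 in the proliferating-like cluster 1 to −0.82 in goblet-like cells at 48 h. Krt8 was lower in 6 of 6 states at 24 h and 6 of 7 at 48 h; with TMM factors 4 of 6 remained lower at 24 h and goblet-like cells turned higher. Held at the untreated share of each state, the pooled log2 ratio was −0.94 and −1.10 for Krt19, −0.57 and −0.54 for Krt8, −0.39 and −0.48 for Krt18 and −0.35 and −0.37 for Krt7.

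**Figure D3:**
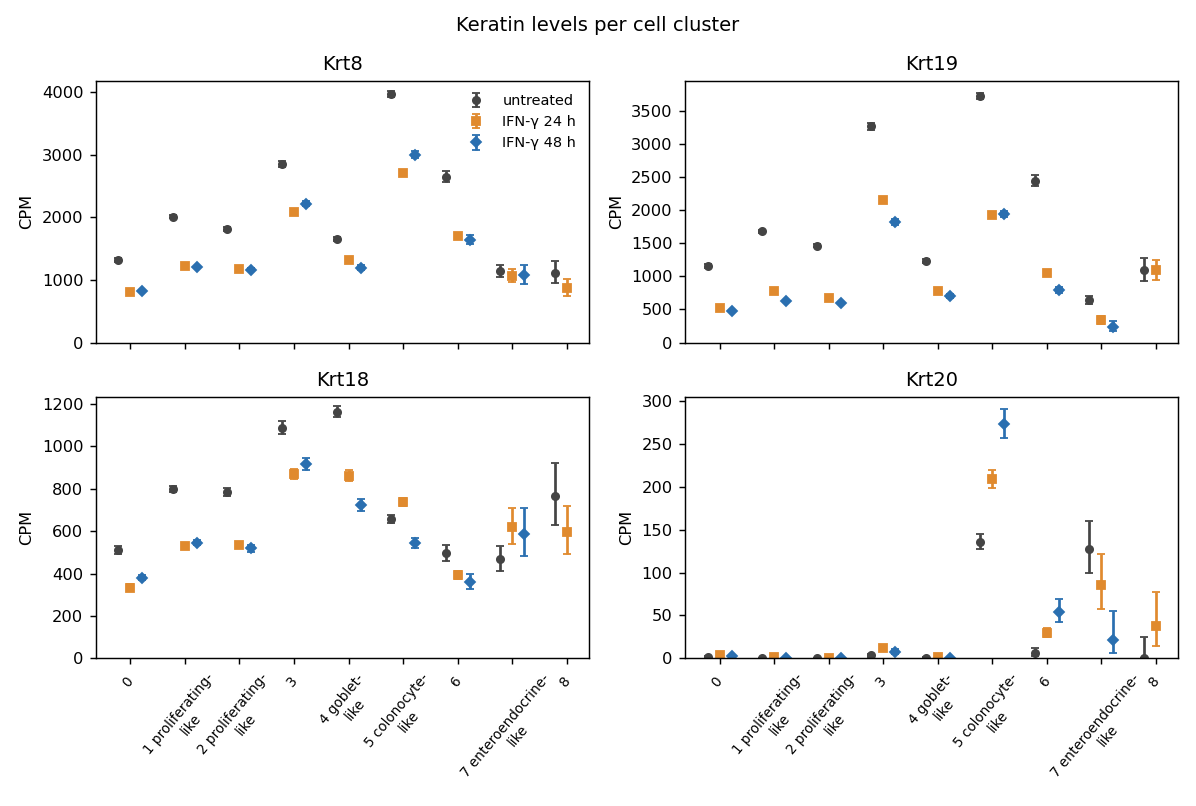
Levels of Krt8, Krt19, Krt18 and Krt20 in CPM per cell cluster and library, for groups of at least 10 cells, with 95% counting intervals; each panel has its own axis. Krt8 and Krt19 peak in colonocyte-like cells and cluster 3 and are lower in the treated libraries in most clusters. In enteroendocrine-like cells the interval of the Krt8 log2 ratio spans 0 at 24 h (12 cells) and 48 h with total UMIs. In cluster 8 at 24 h (25 cells) that of Krt19 spans 0 (1091 against 1094 CPM). Under TMM factors Krt8 turns higher in goblet-like cells at 24 h (0.12). Krt18 peaks in goblet-like cells in the untreated library and in cluster 3 at 48 h, with both overlapping at 24 h. Krt20 stands at 136, 209 and 273 CPM in colonocyte-like cells.

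The shift in partner balance was found in clusters 0 to 7 as well. In proliferating-like cluster 1 the ratio of type I to type II UMIs was 1.01, 0.851 and 0.761. In goblet-like cells it was 1.15, 0.991 and 0.937, and in colonocyte-like cells 1.04, 0.933 and 0.824. Krt19 per Krt8 UMI was lower in the treated libraries in each of these states, while Krt18 per Krt8 UMI was higher in cluster 1 (0.397, 0.432 and 0.451) and lower in goblet-like cells. Cluster 8, with 16, 25 and 9 cells, did not share the shift. Its ratio of type I to type II UMIs was 1.19, 1.40 and 1.36, with overlapping intervals.

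**Figure D4:**
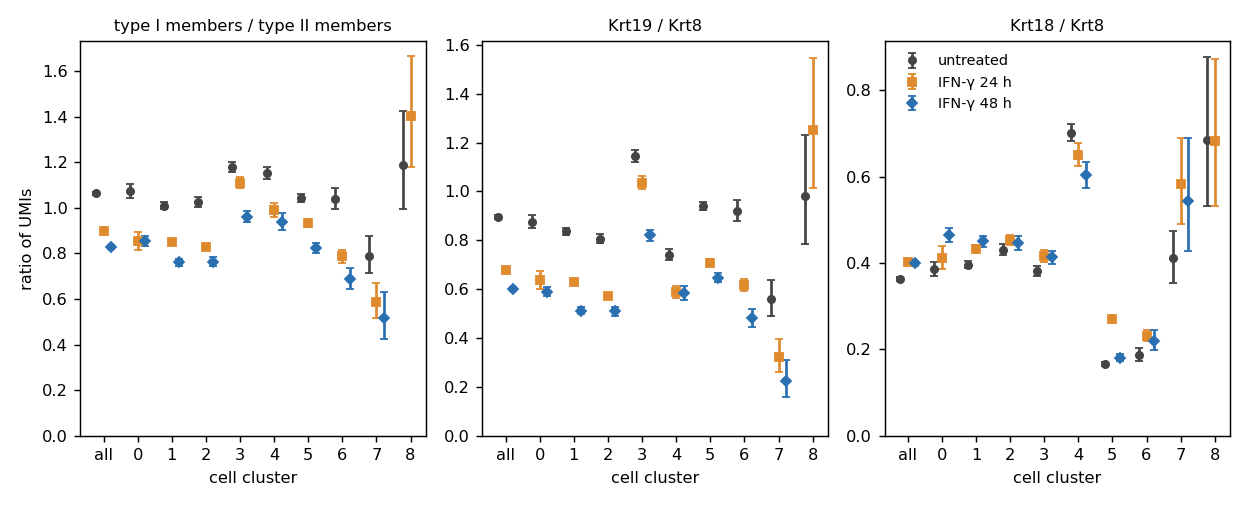
Ratios of UMIs between keratin partners over all cells and per cell cluster, for groups of at least 10 cells, with 95% counting intervals. Type I over type II and Krt19 over Krt8 are lower at 24 h and 48 h in clusters 0 to 7. In the small cluster 8 both are higher at 24 h (1.40 against 1.19, and 1.25 against 0.981), with overlapping intervals. Among clusters 0 to 7 Krt18 over Krt8 is highest in cluster 4 (goblet-like) and lowest in clusters 5 (colonocyte-like) and 6.

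Krt20 lay mostly in colonocyte-like cells, which held 89.7%, 85.0% and 87.2% of its UMIs. Its level there was 136 CPM (128 to 145) without IFN-γ, then 209 and 273 CPM, while the other cells of the untreated library stood at 2.60 CPM. The log2 ratio of colonocyte-like to other cells was 5.71, 5.48 and 6.23. The colonocyte-like level was thus higher in both treated libraries, with log2 ratios of 0.62 (0.50 to 0.73) and 1.005 (0.88 to 1.13), in the same cells in which Krt19 was lower by −0.95 and −0.94. The number of Krt20 UMIs per Krt19 UMI in these cells was 0.0365, 0.108 and 0.141. The ratios of treated to untreated colonocyte-like cells rest on the clusters used here, and other cluster settings were not tried for them. In the highest group by a colonocyte gene list, given below, the differences in Krt20 were smaller, with 92.7, 116 and 117 CPM.

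Krt20 UMIs were unevenly spread over these cells. At full depth 48.1%, 57.7% and 47.3% of colonocyte-like cells held a Krt20 UMI. After thinning to 5000 UMIs, 29.0% (21.4 to 37.6), 32.4% and 33.5% of colonocyte-like cells held a Krt20 UMI, against 0% of cells in proliferating-like cluster 1 in the untreated library (upper bound 2.51%). The median depth before thinning was 48724 UMIs in the untreated colonocyte-like cells and 88110 in that cluster. The shares therefore overlap between libraries within counting error, although the level differs. The cells with the most Krt20, 1% of each library, held 53.8%, 57.9% and 66.4% of its UMIs. At 24 h, 230 UMIs came from 1 colonocyte-like cell, without which the level was 181 CPM. Barcodes under 2000 UMIs, taken as background, held 10.9, 22.003 and 7.44 CPM of Krt20. The abundant members stood near their cell levels in that background, with 2125, 1343 and 1303 CPM of Krt8, 2056, 1036 and 815 CPM of Krt19 and 922, 596 and 702 CPM of Krt18, and its part in the levels of single states was not tested.

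Outside colonocyte-like cells Krt20 was lower, but not uniformly so. In cluster 3 it stood at 3.46, 11.9 and 7.74 CPM and in the small cluster 6 at 6.22, 29.7 and 54.2 CPM, the latter from 9, 115 and 68 UMIs; the share of background RNA in these values was not tested. Enteroendocrine-like cells stood at 127, 85.4 and 21.4 CPM from 30, 12 and 20 cells. At least 1 Krt20 UMI was found in 13, 5 and 3 of these cells. In the untreated library 45 of their 72 UMIs came from 1 cell, and the level without it was 52.2 CPM. That cell held 869 Chgb UMIs, 2 Car1 UMIs and no Slc26a3 UMI.

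**Figure D5:**
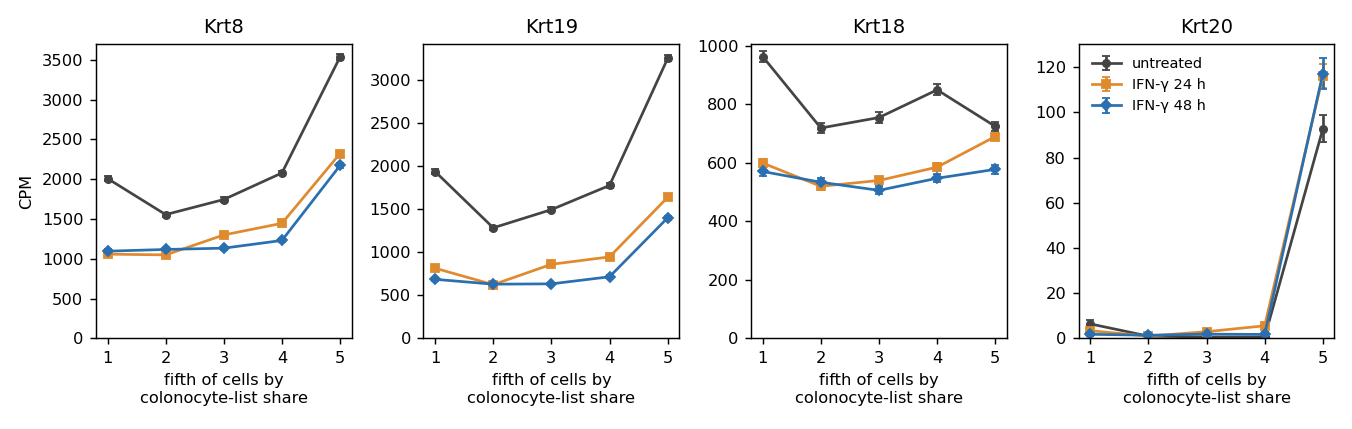
CPM of Krt8, Krt19, Krt18 and Krt20 in 5 equal groups of cells per library, ordered by the share of UMIs from a 15-gene colonocyte list that holds no keratin; bars are 95% counting intervals. Krt20 lies at 92.7, 116 and 117 CPM in the highest group and under 7 CPM in the rest. The median list level of the highest group is 5545, 2001 and 1819 CPM, so the groups are not alike between libraries.

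A grouping that needs no clusters also placed Krt20 in the cells richest in colonocyte genes. Its gene list is the one that named the colonocyte-like cluster, so it is not separate support. The cells of each library were split into 5 groups by their share of colonocyte-list UMIs. Krt20 stood at 92.7, 116 and 117 CPM in the highest group, where both treated libraries overlapped within counting error. In the untreated library it stood at 6.38 CPM in the lowest group and 0.949 CPM in the next. The colonocyte list itself was lower in the treated libraries, with 3187, 1296 and 1203 CPM over all cells. The highest group was therefore not alike between libraries, with a median list level of 5545, 2001 and 1819 CPM. Krt8 in that group was 3537, 2323 and 2173 CPM and Krt19 was 3250.5, 1637 and 1399 CPM, lower at 48 h than at 24 h. In the colonocyte-like cluster the 48 h level of Krt8 was the higher one with total UMIs. Under TMM factors its log2 ratio to untreated was lower at 48 h there too (−0.10 and −0.22). Krt23 ran the other way in the untreated library, with 10.1 CPM in the second group from the bottom and 1.22 CPM at the top.

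Krt23 was highest in the untreated cluster 0, at 12.7 CPM, and lowest among states with UMIs in colonocyte-like cells, at 2.25 CPM. It was lower in cluster 0 at 24 h (0.736 CPM) and at 48 h (1.28 CPM), from 79 UMIs to 3 and 15. In cluster 3 it read 9.43, 13.7 and 3.01 CPM, and without the cell with 64 UMIs the 24 h value was 2.64 CPM. Krt80 was highest among the larger states in untreated cluster 3, at 5.003 CPM, of which 11 of 26 UMIs came from 1 cell.

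The other 46 keratin genes were sparse. Krt4, Krt10, Krt39, Krt87, Krt36 and Krt14 reached 1 CPM in some library, and 15 had no UMI at all. Krt4 had the largest difference in CPM, with 44.0, 5.11 and 1.44 CPM and log2 ratios of −3.11 (−3.27 to −2.95) and −4.94 (−5.31 to −4.59). Krt14, a basal keratin, stood at 1.43, 0.113 and 0.169 CPM, while Krt10 stood at 5.22, 7.33 and 4.001 CPM. The 10 genes of the squamous marker list summed to 92.6, 63.6 and 71.9 CPM, with 5 of them over 1 CPM in each library; Sprr1a, Itgb4 and Ly6d were raised in cluster 3, while Sprr3 was at 0 in every library and Trp63 had at most 0.0847 CPM.

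The pattern of each gene over the 23 groups of cluster and library with at least 20 cells was compared with that of 8996 genes. Krt8 was most like Gm28040 (Pearson correlation of log2 CPM 0.96), Eps8l3 (0.91) and Sult1b1 (0.89), and Krt19 most like Anxa8, Dcxr and Capg (0.94 each). Krt18 and Krt7 were each near the top of the other's list, at 0.81, ahead of Anxa5 (0.79) for Krt18. Krt20 was most like Ms4a8a (0.84) and Syap1 (0.83), and Krt23 most like Cdh13 (0.78), with Krt4 at 0.77. Groups of 1 library share its depth and background, so these are descriptions.

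Filaments are anchored to the cell border by desmosomal proteins and plakins, and 14 of the 14 genes of that list passed the low-value limit. Of these 14, Dsp, Dst and Ppl were at least 2-fold lower at 24 h, against 10.5% of all genes, and none at 48 h, against 6.23%; under TMM factors none of the 3 was (−0.62, −0.91 and −0.61). With total UMIs none was 2-fold higher, and the median log2 ratio was −0.76 and −0.49 (−0.31 and −0.30 under TMM factors). Over all genes tested the median was −0.26 and −0.08 (0.19 and 0.10 under TMM factors). Dsp, the plakin that ties keratins to desmosomes, stood at 243, 116 and 146 CPM, and Dsg2, a desmosomal cadherin, at 197, 126 and 170 CPM. Pkp4, an armadillo-repeat protein of cell junctions, had 153, 127 and 223 CPM.

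Of 18 epithelial transcription factor genes, 14 passed the limit at 24 h and 15 at 48 h. Hnf4g and Klf4 were at least 2-fold lower at 24 h and Klf4 and Sox9 at 48 h, against the same 10.5% and 6.23% of all genes. Under TMM factors neither was at 24 h (−0.64 and −0.56), while both remained so at 48 h (−1.53 and −1.05). With total UMIs none was 2-fold higher, and the median log2 ratio was −0.49 and −0.37 (−0.05 and −0.19 under TMM factors). Klf5, a factor of proliferating crypt cells, stood at 380, 309 and 317 CPM and Ehf, an epithelial ETS factor, at 364, 280 and 281 CPM. All 15 genes of the keratin partner and regulator list passed and none was 2-fold lower or higher. Their medians were −0.11 and −0.17. Under TMM factors they were 0.33 and 0.01, beside 0.19 and 0.10 over all genes tested. The 14-3-3 genes Ywhae (562, 501 and 400 CPM) and Ywhaz (380, 351 and 298 CPM) led this list. Among other intermediate filament genes, 3 of 11 passed, the lamins Lmna, Lmnb1 and Lmnb2, and none was past 2-fold, with medians of −0.19 and −0.30 (0.25 and −0.12 under TMM factors); Vim, the filament of mesenchymal cells, was at or under 0.622 CPM.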

How the data were processed

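Colon organoid cells were measured by 3′ v3 droplet sc-RNAseq (10x Genomics) in 3 libraries. The authors mapped reads to mm10 with Cell Ranger 6.0.1 and deposited raw UMI count matrices that still hold background barcodes; the annotation release is not given in the sources used here. The study's own limits were applied to barcodes: a minimum of 5000 UMIs, a minimum of 400 genes and a maximum of 15% mitochondrial UMIs. Counts were summed over cells and scaled to CPM. Ratios have exact conditional binomial intervals, levels exact Poisson intervals and shares exact Clopper-Pearson intervals (95%, counting error only). Clusters were made with Seurat 5.3.0 (R 4.3.3; CCA over 30 dimensions, 2000 variable genes without keratins, 20 principal components, resolution 0.5) and named where at least 3 markers of a list were raised and at least 1 was among the 10 leading genes. This last condition was added after cluster 6 had first been named without it. TMM factors came from edgeR 4.0.16. No doublet caller was run and doublets were kept; an alternative leaves out the 5% of cells with the most UMIs. The interferon regulatory factor motif was shortened by 1 letter after a first promoter search. A further motif that was searched is not reported here. The ratio script was tested on simulated data. The members and gene lists were chosen with earlier results of these data known. Named genes are the 7 members, other keratins reaching 1 CPM, the genes of each list with the highest summed CPM, the 5 genes most like each member (correlation of log2(CPM + 1), mean of at least 10 CPM, members with at least 300 UMIs) and treatment checks.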

Additional observations from a re-analysis of the deposited data

Results flagged for a closer look

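The direction of 4 members differed between cell states at the same time, beyond the counting intervals within each state; with 1 library per condition these differences between states were not tested. Krt18 at 24 h was higher in colonocyte-like cells (log2 ratio 0.17, 0.11 to 0.22) and lower in the other 5 states. Under TMM factors 3 of these 5 stayed lower and cluster 3 turned higher (0.12). Without the highest cell of each library the colonocyte-like level was 713 CPM at 24 h and 637 CPM in the untreated library. Krt7 at 48 h was higher in enteroendocrine-like cells (0.43, 0.09 to 0.77), from 20 and 30 cells, and lower in 6 states. Krt20 at 48 h was lower in enteroendocrine-like cells (−2.57, −4.49 to −1.16), where 1 untreated cell held 45 of 72 UMIs, and higher in colonocyte-like cells and cluster 3. Krt23 at 24 h was higher in cluster 3 (0.54, 0.00 to 1.08) through 1 cell with 64 of 79 UMIs, and lower in 5 states.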

How the results depend on the processing

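Of 65 alternative values of the main results, 36 stayed within the counting interval (or within 1.5 times a count), 29 moved and none reversed. The summed log2 ratio (−0.69) at 24 h was −0.73 with at most 10% mitochondrial UMIs, −0.63 as a mean over cells, −0.63 with thinned cells, −0.67 without the 5% of cells with the most UMIs, −0.24 with TMM factors and −0.64 with cell states at their untreated share, the last added after the data were seen. At 48 h (−0.83) it was −0.85 with a minimum of 2000 UMIs, −0.74 with 10000, −0.82 with at most 10% mitochondrial UMIs, −0.84 with thinned cells, −0.65 with TMM factors and −0.68 with states at their untreated share. The type I to type II balance changed by −0.22 (24 h) and −0.33 (48 h, −0.33 also with a minimum of 2000 UMIs) with thinned cells. The count of members past 2-fold at 24 h was 0 as a mean over cells, with thinned cells, without the 5% of cells with the most UMIs and with TMM factors and 3 without the low-value limit, which added Krt23 and Krt80; at 48 h it was 2 without that limit, with Krt23. For Krt20 in colonocyte-like over other cells, resolution 0.3 gave 5.08, 5.07 and 5.39, 30 principal components gave 5.24 (untreated) and 5.57 (48 h), the highest group by the colonocyte list gave 5.35 (untreated) and 5.19 (24 h), and leaving out the highest cell, added after the data were seen, gave 5.28 at 24 h. Among 139 alternative values of single members, 3 reversed: Krt7 at 24 h with TMM factors (0.042) and Krt20 at 48 h as a mean over cells (−0.13) and with thinned cells (−0.25); the cause was not tested. No paired analysis was possible because each condition has 1 library. Krt23 and Krt80 rest on few UMIs, and the 48 h library had the lowest median depth, 10772 UMIs per cell.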
